A study of Mus musculus with 16 samples.

Results

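Genes that lie near sites bound by the transcription factor Lhx1 were examined in definitive endoderm (DE) cultures that carry or lack Lhx1. The study's supplementary list of 621 high-confidence Lhx1 peaks names a nearest gene for 520 of them. It holds 449 gene symbols, of which 244 have a peak at most 20000 bp from the gene. Leaving out Fzd8, Hhex and Sema6d, which lie within that distance and were set aside by the rule, 241 genes remained as members. A 4th symbol that the rule names, Msx1, lies beyond the limit and was also left out of the farther genes used for comparison. The array carries 19057 gene symbols, 132 of the members among them, and 71 members were measured, which means that a probe for the gene exceeded background (detection p-value under 0.01) on at least 4 of 16 arrays.

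Lhx1 is a LIM-homeodomain protein that binds DNA through short TAAT-containing sites and works with the adaptor Ldb1 and single-stranded DNA-binding proteins of the Ssbp family. In the mouse gastrula it is expressed in the anterior mesendoderm and in progenitors of the midline and of the definitive endoderm. Embryos without it lack the forebrain. A peak near a gene marks a place where the protein was found on chromatin, and does not by itself say that the gene responds to it.

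RNA came from Lhx1+/+ (wild-type) and Lhx1∆/∆ (null) ES cell lines, which were derived from blastocysts and differentiated towards DE with Activin-A, a ligand that stands in for Nodal. Cultures were taken at days 5 and 6, which makes 4 groups of 4 cultures, each hybridized to 1 Illumina Mouse WG-6 v2 array. The methods name independent cell lines differentiated to each day, while the labels do not say which line a culture came from. The p-values therefore measure the spread between these cultures. The main model counts all cultures as independent and pools their spread over both days. Where the days share lines, its p-values may be too small. Fits to 1 day at a time are given at the end. The peaks were found in a different model, P19CL6 embryonal carcinoma cells with an inducible, tagged Lhx1. Values below are log2 intensities after background correction and quantile normalization, each gene is represented by its brightest measured probe, and differences are null minus wild type. A gene was called changed at an adjusted p under 0.05 in limma, with adjustment over all 10939 genes tested. In these bulk cultures, fewer cells that express a gene and less RNA per cell cannot be told apart.

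The number of probes above background ranged from 10734 to 15453 per array. Lhx1 itself read 14.39 to 14.80 in wild-type cultures of day 5 and 8.15 to 14.49 in null cultures of that day (2-sided exact permutation p = 0.0571). At day 6 the ranges were 14.34 to 14.88 and 9.76 to 14.03 (2-sided exact permutation p = 0.0286, the smallest that 4 against 4 can give). Where the Lhx1 probe lies relative to the deleted exons is not known, so its signal does not check the genotype labels. The null cultures with the lowest Lhx1 signal were day 5 replicate 4 and day 6 replicate 2. Of 7 markers of definitive endoderm, all were measured, and their mean level ranged over 11.62 to 12.75 (wild type) and 8.41 to 11.16 (null). The lowest means, 8.41 and 8.9, were also those of null day 5 replicate 4 and null day 6 replicate 2. The other null cultures lay at 10.19 to 11.16. Of 7 markers of nascent and lateral mesoderm, T and Hand1 were not measured. The mean of the other 5 (Mixl1, Bmp4, Msx1, Tbx3 and Pmp22) ranged over 8.85 to 10.23 (wild type) and 11.18 to 12.74 (null). Of the endoderm markers 2 were called lower at each day, and of the mesoderm markers 1 was called higher at day 5 and 4 at day 6. The lists were written with earlier results of these data known, so these counts describe the cultures and are no separate evidence of a shift. By RT-PCR the paper found the mesoderm markers Brachyury (T) and Lefty2 unaffected in null cultures. The mean level of 6 pluripotency markers overlapped between genotypes at both days. So did that of 4 visceral endoderm markers (Afp was not measured) and the single measured neural and blood or endothelial markers, Nes and Kdr, with 0 called, while Sox1, Pax6, Sox3, Pecam1, Tal1 and Cdh5 were not measured. Both marker shifts run along with genotype, and their part in the differences of the members was not tested.

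Among the members, 109 have no probe under their symbol, and 81 of those are clone or predicted-gene names. Of the 132 on the array, 61 were not measured, 45 of them detected on no array and 16 on 1 to 3 arrays. These include the receptor genes Notch2, Oxtr and Ntsr1, the retinoic acid receptor Rara, the axon guidance gene Slit1 and the DNA demethylase Tet3. The measured share, 53.8%, compares with 46.9% of all symbols on the array and with 54% of the genes whose nearest peak lies between 20000 and 100000 bp away. Of the 71 measured members, 40 were above background on all 16 arrays and 7 on 4 to 8 arrays, and none was detected in 1 genotype alone.

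Few members changed. At day 5 a single member of 71 was called (1.41%), against 0.558% of all genes tested. At day 6 there were 2 of 71 (2.82%), against 1.57% of all genes. All calls were lower in null cultures, Mbp at both days and Kif26a at day 6. The share of all genes called lower was 0.494% on the earlier day and 0.996% on the later. These counts are too small to set the members apart from other genes. The 61 measured genes farther from a peak, from which Msx1 was left out, held no call at either day. A larger share of them than of the members or of all genes reached an unadjusted p under 0.05, 13 at day 5 (21.3%) and 16 at day 6 (26.2%). Counting the 3 genes that the rule sets aside, an alternative added after seeing the data, raises the members' counts. The paper had already reported Hhex and Fzd8 as reduced in null cultures and named Sema6d among its candidate targets, so this rise was known beforehand. Fzd8, a Wnt receptor, Hhex, a homeobox factor of anterior endoderm, and Sema6d, a semaphorin, were all called lower at both days. With them the counts would be 4 of 74 at day 5 and 5 of 74 at day 6, beside 0.558% and 1.57% of all genes. The Hhex log2 fold change was -2.40 at day 5 and -2.30 at day 6. Fzd8 was detected on none of the null arrays of day 5 and was at least 3.76-fold lower there, with a fitted log2 fold change of -2.86 at day 6, where 1 null array detected it. That of Sema6d, detected on 1 null array of day 5, was -2.52 and -2.04. The Hhex calls held with any single culture left out. The Fzd8 call of day 5 was lost without wild-type replicate 2, 3 or 4 or null replicate 1 (adjusted p up to 0.0805) and that of day 6 without wild-type replicate 4 (adjusted p = 0.0531), and the Sema6d call of day 6 without wild-type replicate 1 or 4 (adjusted p = 0.0649 and 0.0615). Without null day 6 replicates 3 and 4, the 2 samples whose titles and descriptions conflict on the number, all 3 calls of day 6 were lost (adjusted p of 0.0883 to 0.111). The members are therefore the genes near peaks without these 3, and their counts do not describe all genes near peaks.

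The middle of the distribution was close to 0. The median log2 fold change of the members was 0.01 at day 5 and 0.078 at day 6, beside 0.015 and 0.004 for all genes, and 34 members were lower and 37 higher in null cultures at day 5. The members were spread more widely than all genes, and so were the genes farther from a peak. The median size of their log2 fold change was 0.30 at day 5 and 0.42 at day 6, beside 0.21 at each day for all genes and 0.23 and 0.36 for the farther genes. Log2 fold changes beyond 1 in size were seen in 9 members at day 5 (12.7%, against 6.71% of all genes) and in 8 at day 6 (11.3%, against 7.45%), and the shares were larger among the farther genes, at 14.8% and 19.7%. The spread among cultures of 1 group was wider too, with a median SD of 0.50 for the members, 0.44 for the farther genes and 0.36 for all genes, and the median log2 intensity of the probes was 9.19 against 9.6. Unadjusted p under 0.05 was reached by 9 members at day 5 (12.7%, against 11.9% of all genes) and by 15 at day 6 (21.1%, against 13.9%). At day 5 the genotypes did not overlap for 5 members that were lower in null cultures (Emb, Kif26a, Mbp, Ppm1k and Sox13), or 7.04%, against 3.43% of all genes, and for 2 that were higher (Ifitm1 and Traf3ip2), or 2.82%, against 2.08%. At day 6 there were 5 lower (Dnmt3b, Emb, Kif26a, Mbp and Med16), again 7.04%, against 5.67% of all genes, and 1 higher (Sall3), or 1.41%, against 3.46%. In either direction together the members reached 9.86% and 8.45%, and the farther genes 11.5% and 14.8%. Between the days, 24 members were lower at both (33.8%, against 36.1% of all genes), 29 higher at both (40.8%, against 38.7%), and 18 had opposite signs (25.4%, against 25.3%).

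**Figure D1:**
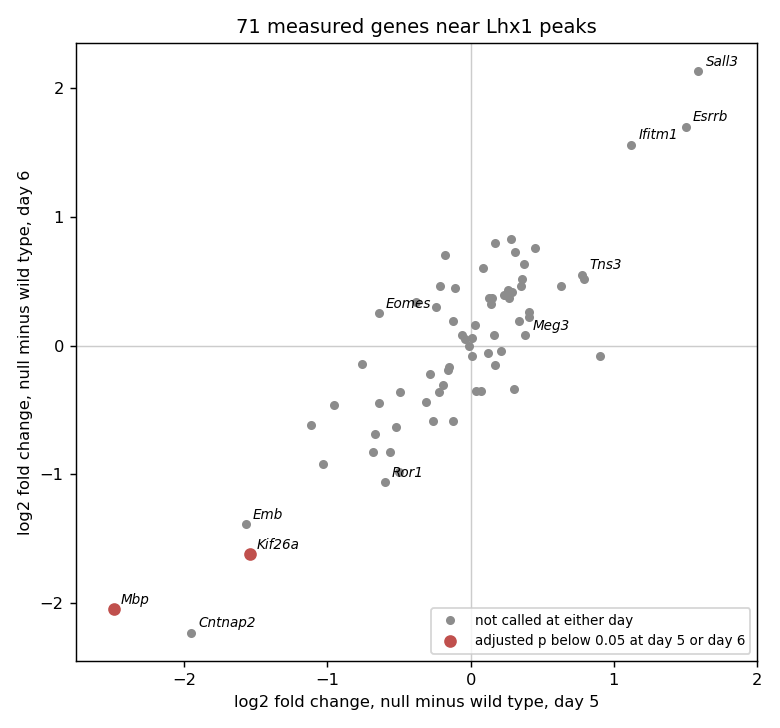
Log2 fold change, null minus wild type, of the 71 measured members at day 5 (horizontal axis) and day 6 (vertical axis), 1 point for each gene and 4 cultures in each group. Mbp and Kif26a, in red, passed the adjusted threshold at 1 day or both, and most of the other genes lie within 1 log2 unit of 0 at both days.

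The measured members were read by role, in groups written from general knowledge. The group with the called genes was that of membrane, adhesion and cytoskeletal proteins and channels, with 16 of 32 members measured. One was called at day 5 and 2 at day 6, and its log2 fold changes ran from -2.49 to 1.12 at day 5. Mbp encodes myelin basic protein, which compacts the myelin sheath, and its locus also gives rise to the Golli proteins made outside myelin. Its 4 wild-type cultures of day 5 read 8.37, 9.15, 9.36 and 10.07, and the null cultures 6.33, 6.76, 7.31 and 6.62. At day 6 the wild-type values were 10.51, 8.63, 10 and 9.63 and the null values 7.76, 8.30, 7.25 and 7.25. The genotypes did not overlap at either day. The log2 fold change was -2.49 ± 0.41 (SE, n = 4 per group) at day 5 with a limma adjusted p of 0.0167, and -2.05 ± 0.41 at day 6 with an adjusted p of 0.0232. None of the null arrays of day 5 detected the probe, so Mbp was at least 3.94-fold lower there, measured against the lowest signal above background. That size rests on the background correction, since the log2 fold change was -1.43 without it and -1.33 in the authors' rank-invariant table. Both Mbp calls depended on single cultures. At day 5 the call was lost without wild-type replicate 2, 3 or 4 or null replicate 1 or 4 (adjusted p up to 0.0749), and at day 6 without wild-type replicate 1, 3 or 4 or null replicate 1, 3 or 4 (adjusted p up to 0.0898), always with the same direction. With same-numbered cultures of a day as a block the day 5 call stood and that of day 6 was lost (adjusted p = 0.0539). Both calls were lost with a replicate block over both days (0.0573 and 0.0647). The labels tie no number to a line, so that block may join unrelated cultures. The adjusted p of day 6 was 0.234 without the 2 samples of conflicting labels.

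Kif26a, an atypical kinesin known for a role in enteric neuron development in the mouse, followed the same order near background. Wild-type cultures read 7.93, 8.77, 8.81 and 8.25 at day 5 and 8.52, 8.69, 7.75 and 8.10 at day 6. Null cultures read 6.80, 7.30, 7.10 and 6.39 at day 5 and 7.62, 5.98, 6.61 and 6.37 at day 6. No null culture reached the lowest wild-type culture of its day, and 1 null array of each day detected the probe. The log2 fold change at day 6 was -1.62 ± 0.33 (adjusted p = 0.0274), and at day 5 it was -1.54 ± 0.33 and missed the threshold (adjusted p = 0.0525). The day 6 call was lost without wild-type replicate 1 or 4 or null replicate 2, 3 or 4 (adjusted p up to 0.103). At day 5 it was gained without wild-type replicate 1 of that day, or without wild-type replicate 2 or null replicate 1 or 2 of day 6 (adjusted p down to 0.0293), so the side of the threshold on which Kif26a falls turned on single arrays. The day 6 call was also lost with the replicate block over both days (adjusted p = 0.0603) and without the samples of conflicting labels (0.217), and the log2 fold change was -0.78 without background correction.

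Emb encodes embigin, a membrane glycoprotein that accompanies monocarboxylate transporters to the cell surface. At day 5 wild-type cultures read 14.02, 14.33, 13.80 and 14.53 and null cultures 12.88, 13.17, 12.82 and 11.53. At day 6 the values were 14.59, 13.98, 14.16 and 14.76 against 13.55, 12.30, 12.39 and 13.67. The genotypes did not overlap at either day, yet the log2 fold changes of -1.57 ± 0.38 and -1.39 ± 0.38 did not pass the threshold (adjusted p = 0.0802 and 0.083), except at day 6 with array weights (adjusted p = 0.0137) and without null replicate 4 of day 5 (adjusted p = 0.039). Emb, Kif26a and Mbp are the 3 members whose genotypes were apart in the same direction at both days, all lower in null cultures, beside 1.6% of all genes that were lower in this way. None was apart and higher at both days, beside 0.539% of all genes.

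Cntnap2, a neurexin-family adhesion protein of neurons, had the most negative day 6 log2 fold change of the members. Wild-type cultures of day 5 read 9.69, 11.42, 9.54 and 10.88, and null cultures 9.77, 8.94, 9.03 and 5.98. At day 6 they read 11.33, 9.87, 10.63 and 11.71, against 10.06, 5.72, 7.86 and 10.99. The genotypes overlapped at both days, and the log2 fold changes of -1.95 ± 1.02 and -2.23 ± 1.02 did not pass (adjusted p = 0.478 and 0.341). Its lowest values were those of null day 5 replicate 4 and null day 6 replicate 2, the cultures with the least Lhx1 signal and the lowest endoderm marker means.

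At the other end of this group stood Ifitm1, an interferon-induced membrane protein also expressed in early mesoderm and germ cell precursors of the mouse. Wild-type cultures read 12.72, 12.33, 12.51 and 12.00 and null cultures 13.70, 13.66, 13.32 and 13.34 at day 5, with no overlap. At day 6 they read 9.43, 13.55, 11.43 and 11.53 against 12.87, 13.18, 13.36 and 12.74. Wild-type replicate 2 exceeded every null culture there, and the log2 fold changes of 1.12 ± 0.57 and 1.56 ± 0.57 did not pass (adjusted p = 0.467 and 0.208). Without that culture, the only single omission that gave a call, the day 6 value was 2.24 with an adjusted p of 0.0105. It was 0.87 without wild-type day 6 replicate 1. Array weights also gave a call at day 6 (adjusted p = 0.0264). Tns3, which encodes the focal adhesion protein tensin 3, spanned 10.13 to 10.83 for wild type and 10.73 to 11.6 for null at day 5, a log2 fold change of 0.78 ± 0.25 that did not pass (adjusted p = 0.199).

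**Figure D2:**
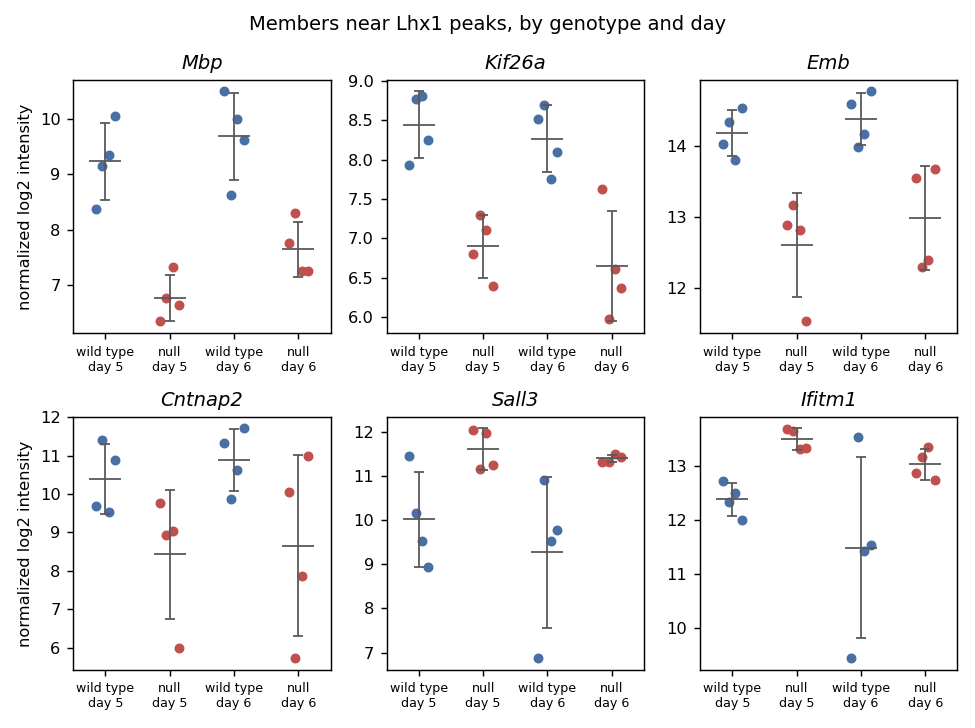
Normalized log2 intensity of 6 members in each culture, by genotype and day, with wild-type cultures in blue and null cultures in red. Horizontal marks and bars are the mean and SD of 4 cultures. Mbp, Kif26a and Emb show null cultures below all wild-type cultures of the same day, while Cntnap2 overlaps at both days and Sall3 and Ifitm1 overlap at 1 day each.

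Transcription factors and chromatin proteins formed the largest measured group, with 23 of 31 members measured and 0 called at either day. The smallest adjusted p was 0.362 at day 5 and 0.117 at day 6, and the medians were -0.12 and -0.04. Sall3, a spalt-family zinc finger factor, had the highest log2 fold changes of the members. Its wild-type cultures read 11.46, 10.16, 9.53 and 8.95 at day 5 and 6.87, 10.92, 9.52 and 9.77 at day 6. The null cultures read 12.05, 11.16, 11.99 and 11.26, then 11.33, 11.33, 11.51 and 11.44. At day 6 every null culture exceeded every wild-type culture, while the wild-type cultures ranged widely. The log2 fold change of 2.13 ± 0.68 did not pass (adjusted p = 0.139), nor did the 1.59 ± 0.68 of day 5 (adjusted p = 0.362). Array weights, with which 1153 of all genes were called at day 6, gave Sall3 a call there (adjusted p = 0.0228). Without wild-type day 6 replicate 2, the only single omission that gave a call, the day 6 value was 2.68 with an adjusted p of 0.0405. It was 1.33 without wild-type day 6 replicate 1.

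Esrrb, an orphan nuclear receptor of the pluripotency network, varied widely within genotypes. Wild-type cultures of day 5 read 8.72, 8.81, 7.67 and 10.01 and null cultures 8.47, 12.92, 10.18 and 9.64. At day 6 the values were 7.23, 10.51, 8.78 and 7.61 against 9.91, 9.92, 12.27 and 8.83. A single null culture of each day stood above 12, and the log2 fold changes of 1.5 ± 0.96 and 1.70 ± 0.96 did not pass (adjusted p = 0.583 and 0.47).

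Eomes, the T-box factor that the mouse embryo needs to form definitive endoderm, had the widest spread within groups of any measured member (SD 1.81). Wild-type cultures read 10.17, 10.14, 10.41 and 9.52 at day 5 and 9.78, 10.07, 9.30 and 9.60 at day 6. Null cultures read 11.08, 10.29, 10.81 and 5.51 at day 5 and 11.22, 6.27, 11.10 and 11.18 at day 6. One null culture of each day was far below all wild-type cultures, and the other 3 of day 6 were above all of them. Those low cultures were again day 5 replicate 4 and day 6 replicate 2. Neither log2 fold change, -0.64 ± 1.17 for day 5 or 0.25 ± 1.17 for day 6, passed (adjusted p = 0.882 and 0.97), and another Eomes probe gave -0.41 and 0.25. Without these 2 cultures, a choice made with their low Lhx1 known, the day 6 value was 1.48 with an adjusted p of 0.0118.

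Vrtn, named for its link to vertebra number in the pig, had the same low cultures. It read 11.55, 11.01, 11.61 and 10.92 in wild-type and 12.24, 11.22, 11.86 and 9.34 in null cultures of day 5. At day 6 the values were 10.82, 11.12, 10.60 and 10.97 against 12.16, 8.99, 11.97 and 12.17. All null cultures of day 6 but replicate 2 exceeded the wild-type cultures, and the log2 fold changes of -0.11 ± 0.67 and 0.45 ± 0.67 did not pass (adjusted p = 0.97 and 0.873), while without the 2 low cultures the day 6 value was 1.22 (adjusted p = 0.0271).

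Sp5, a zinc finger factor induced by Wnt signals, was low in cultures of both genotypes. Wild-type values were 12.36, 11.30, 10.83 and 8.46 at day 5 and 8.72, 11.75, 9.46 and 10.53 at day 6. Null values were 12.21, 11.78, 12.53 and 8.25, then 11.92, 8.42, 10.74 and 12.41. Its spread within groups (SD 1.70) exceeded its log2 fold changes of 0.45 ± 1.10 and 0.76 ± 1.10 (adjusted p = 0.917 and 0.868).

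Dnmt3b, a de novo DNA methyltransferase, had the highest signal of its group. Wild-type cultures lay within 14.76 to 15.02 over both days. The null cultures read 14.42, 14.77, 14.90 and 13.33 at day 5 and 14.49, 13.46, 14.54 and 14.44 at day 6. All null cultures of day 6 were below the wild-type range, but the log2 fold change of -0.63 ± 0.30 did not pass (adjusted p = 0.373), nor did the -0.52 ± 0.30 of day 5 (adjusted p = 0.532). Another Dnmt3b probe, dimmer at a mean of 9.43, gave -1.05 at day 5 and -1.18 at day 6 and did not pass either. In the rank-invariant table the day 5 value of the brighter probe was -0.22. Arid1b, a subunit of the SWI/SNF remodelling complex, had log2 fold changes of -0.15 ± 0.18 and -0.17 ± 0.18.

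**Figure D3:**
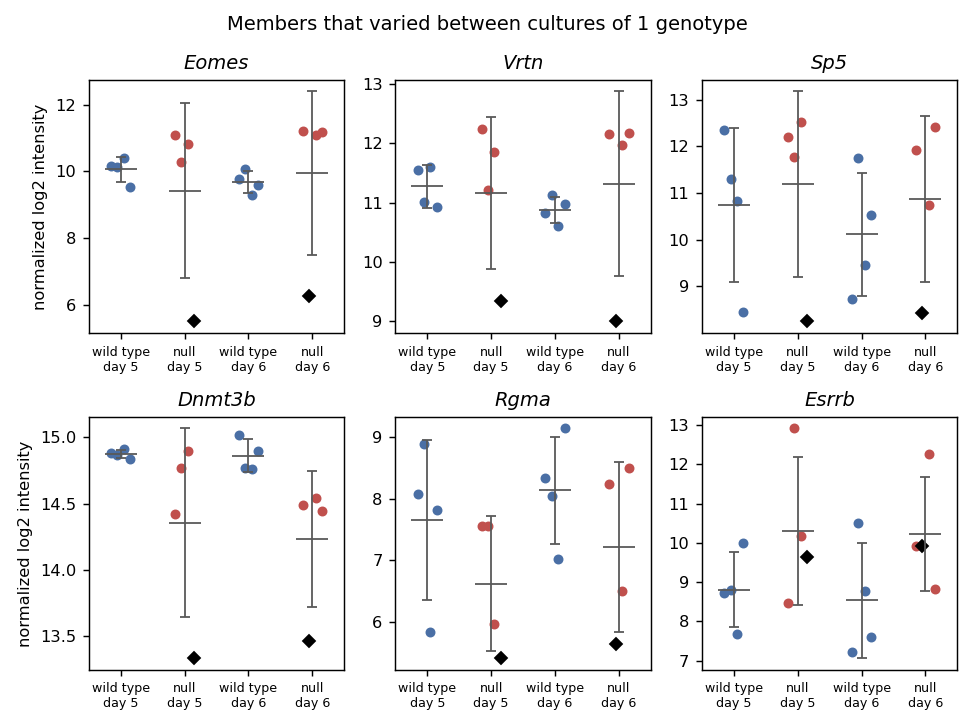
Normalized log2 intensity of 6 members with uneven cultures, drawn by genotype and day with wild-type in blue and null in red. Black diamonds are null day 5 replicate 4 and null day 6 replicate 2, the null cultures with the lowest Lhx1 signal and the lowest endoderm marker means. Horizontal marks and bars are the mean and SD of 4 cultures. The diamonds are the lowest null cultures for Eomes, Vrtn, Sp5, Dnmt3b and Rgma, but not for Esrrb.

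Each of these 2 null cultures was the lowest of all 16 for 9 of the 71 members (12.7%), beside 8.20% and 7.27% of all genes. Null day 5 replicate 4 was also the highest of all 16 for 9 members (12.7%, against 10.8% of all genes). Null day 6 replicate 2 was the highest for 6 (8.45%, against 7.26%). Wild-type day 6 replicate 1 was lowest for 10 members (14.1%, against 7.47% of all genes), so members with an extreme low value were not particular to null cultures. Tspan18, a tetraspanin, ran the other way. It read 9.59 in null day 5 replicate 4 and 10.50 in null day 6 replicate 2, and the other 14 cultures lay below both. The same held for Fgfr2, Slit3 and Tead1, whose highest values were those of these 2 cultures.

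Of the receptors and secreted signals, 10 of 21 members were measured and 0 were called. The group had the lowest medians, -0.54 at day 5 and -0.35 at day 6, and 6 of the 10 were lower at both days. Rgma, a BMP co-receptor, read 8.08, 8.88, 5.84 and 7.81 in wild-type and 7.55, 7.56, 5.97 and 5.41 in null cultures of day 5, with overlap. Its log2 fold changes were -1.03 ± 0.76 and -0.92 ± 0.76 (adjusted p = 0.659 and 0.685). Ror1, a receptor of Wnt5a, was detected on no null array of day 5 and on 1 of day 6. Its wild-type cultures of day 6 agreed closely, at 7.49, 7.54, 7.53 and 7.54, whereas null cultures read 6.57, 7.72, 5.55 and 6.0, and the log2 fold change of -1.06 ± 0.38 did not pass (adjusted p = 0.197). Without the null culture at 7.72, replicate 2, it was -1.48 with an adjusted p of 0.0317. Without null day 6 replicate 3 it was -0.76, and no other single omission gave a call. Array weights also gave Ror1 a call at day 6.

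The fibroblast growth factor receptor gene Fgfr2 overlapped widely, with wild-type cultures from 9.10 to 11.32 and null cultures from 7.38 to 12.13 at day 5, and its log2 fold changes were -0.68 ± 0.87 and -0.83 ± 0.87 (day 6 adjusted p = 0.782). Sema3f, a secreted semaphorin, read 10.05, 10.68, 11.15 and 11.46 in wild-type and 10.22, 9.37, 9.58 and 10.37 in null cultures of day 5. The log2 fold change of -0.95 ± 0.30 did not pass (adjusted p = 0.185) and was -1.21 with an adjusted p of 0.0431 without wild-type replicate 1. Without wild-type day 5 replicate 4 it was -0.74, and no other single omission gave a call. Lpar6, a lysophosphatidic acid receptor, had log2 fold changes of -0.49 ± 0.33 and -0.36 ± 0.33 (adjusted p = 0.607 and 0.729).

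Intracellular signalling proteins and ubiquitin ligases had 14 of 27 members measured and 0 called, with medians of 0.13 and 0.38, and 8 of the 14 were higher at both days. Traf3ip2, the adaptor of the interleukin-17 receptor, read 7.40, 6.94, 7.32 and 7.53 in wild-type and 7.74, 7.85, 8.07 and 8.72 in null cultures of day 5, with no overlap. Its log2 fold change of 0.79 ± 0.25 did not pass (adjusted p = 0.2), and the groups overlapped at day 6 (0.52 ± 0.25, adjusted p = 0.385). Dab2ip, a Ras GTPase-activating protein, and Arhgef18, a guanine nucleotide exchange factor, were near 0, at 0.16 ± 0.16 and 0.04 ± 0.21 at day 5. The enzymes of metabolism, glycosylation and RNA had 7 of 17 members measured and 0 called, among them Mrm1, a mitochondrial RNA methyltransferase (-0.67 ± 0.31 and -0.69 ± 0.31), and the glycosyltransferase Galnt10 (0.01 ± 0.22 and 0.06 ± 0.22). Of the remaining 113 members, mostly uncharacterised, Meg3, an imprinted long non-coding RNA, was the only one measured. Its values were 6.69 to 8.14 over both genotypes at day 5, and its log2 fold change of 0.38 ± 0.34 did not pass (adjusted p = 0.724).

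**Figure D4:**
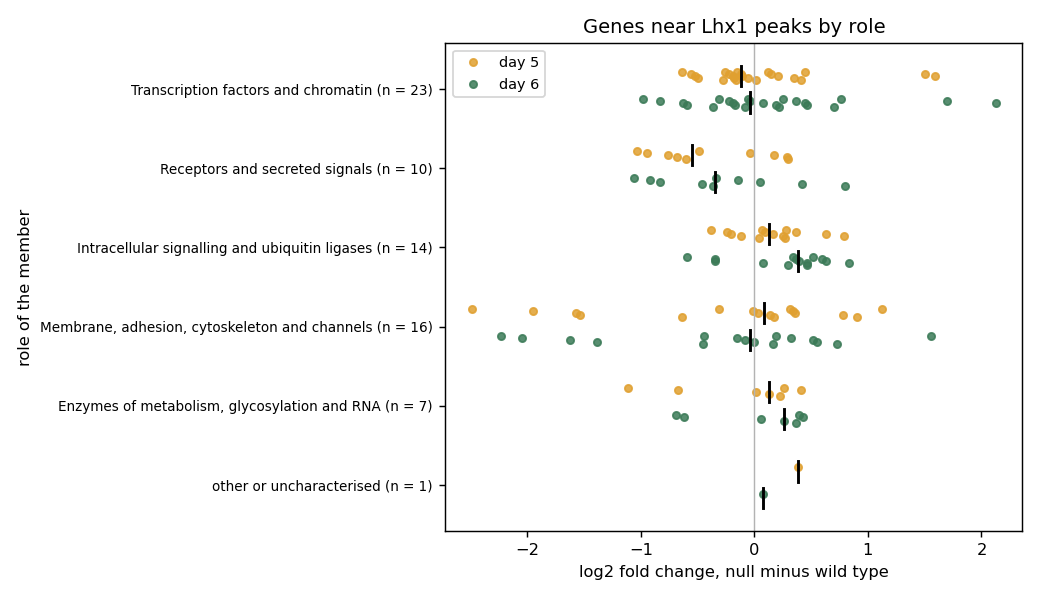
Log2 fold change, null minus wild type, of each measured member, arranged by role, with day 5 in amber and day 6 in green. Black bars are medians, which lie between -0.54 and 0.38, and the receptors and secreted signals have the lowest medians at both days.

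Nearness to the peak was considered next. A peak centre within 500 bp of the gene start was given for 12 members, 5 of which were measured: Sp5, Vrtn, Ppm1k, Ifitm1 and Mad1l1. None was called at either day, and the median log2 fold changes of the 5 were 0.14 and 0.45. Ppm1k, a mitochondrial phosphatase of branched-chain amino acid breakdown, was the one of them that was lower at both days. Its wild-type cultures read 9.0, 9.57, 8.46 and 7.87 and its null cultures 7.85, 7.79, 7.51 and 7.31 at day 5, with the nearest cultures of the genotypes almost touching. The log2 fold change was -1.11 ± 0.37 (adjusted p = 0.223), and -0.62 ± 0.37 at day 6 (adjusted p = 0.514), where the groups overlapped. Mad1l1, a spindle checkpoint protein, had log2 fold changes of 0.14 ± 0.24 and 0.32 ± 0.24. Of the 29 measured members with a peak within 5000 bp, 1 was called at each day, and of the 42 beyond it 0 and 1 were called. The median size of the log2 fold change was 0.31 and 0.39 in the nearer class and 0.30 and 0.42 in the farther class. Among the genes closest to the limit, Arhgef18 and Dapk1 lie just inside it, with day 5 log2 fold changes of 0.04 and -0.12. Ube2ql1 and Fah lie just outside it, at -0.78 and 1.01.

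The promoters of 3 of these genes are shown because the peak lies at the gene start and RefSeq gives a single window for them. Each runs from 250 bases before to 50 bases after the RefSeq start in GRCm38.p6, and capitals mark TAAT and its reverse complement ATTA, the core read by many homeodomains. The peaks were mapped to mm9 and peak sequence was not used here, so these windows are the promoters and not the peaks.
Sp5, chr2:70474673-70474972, plus strand: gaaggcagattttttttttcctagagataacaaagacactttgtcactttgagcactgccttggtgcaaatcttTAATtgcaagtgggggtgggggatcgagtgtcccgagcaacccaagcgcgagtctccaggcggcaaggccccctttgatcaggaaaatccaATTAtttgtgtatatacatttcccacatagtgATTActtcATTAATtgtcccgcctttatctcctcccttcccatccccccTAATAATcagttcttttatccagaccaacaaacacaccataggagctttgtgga
Ppm1k, chr6:57535438-57535737, minus strand: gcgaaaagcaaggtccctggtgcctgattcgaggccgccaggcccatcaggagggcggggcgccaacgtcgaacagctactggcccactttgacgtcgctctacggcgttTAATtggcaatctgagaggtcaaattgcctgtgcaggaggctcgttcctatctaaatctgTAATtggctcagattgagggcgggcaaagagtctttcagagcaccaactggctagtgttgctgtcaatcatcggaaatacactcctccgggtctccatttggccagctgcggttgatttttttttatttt
Ifitm1, chr7:140967826-140968125, plus strand: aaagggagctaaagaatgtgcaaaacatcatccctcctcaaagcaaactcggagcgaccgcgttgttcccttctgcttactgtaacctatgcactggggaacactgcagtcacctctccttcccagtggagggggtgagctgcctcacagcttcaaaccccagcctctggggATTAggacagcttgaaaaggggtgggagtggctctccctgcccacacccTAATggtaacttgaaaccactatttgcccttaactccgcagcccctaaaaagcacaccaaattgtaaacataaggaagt
The Sp5 window holds 7 matches, some of them overlapping, and the Ppm1k and Ifitm1 windows hold 2 each. Of the 3 windows of Vrtn 1 has a match, and of the 2 of Mad1l1 also 1. At least 1 match was found in 58.0% of all 32851 mouse promoter windows and in 46.1% of the 180 windows of the 134 members with a RefSeq promoter. For members with a peak within 500 bp it was 63.6% of 11 windows. Counted by gene, 7 of these 8 members had a match (87.5%), beside 53% of the members and 61.4% of all genes with a window. A match is only a run of letters and is not a bound site. The 3 genes with these promoters had day 6 log2 fold changes of 0.76, -0.62 and 1.56, in 2 directions and none called.

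Of the 71 members, 0 were called by limma for the difference between the day 6 and day 5 effects, and 0 reached an unadjusted p under 0.05, while among all genes the counts were 0 and 106 (0.969%). From day 5 to day 6, 0 members were called in wild-type cultures and 0 in null cultures, with 1 and 3 members at an unadjusted p under 0.05. These shares were 1.41% and 4.23%, against 1.22% and 4.07% of all genes. The median log2 difference of the members over the last day of culture was -0.021 with Lhx1 and 0.006 without it.

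Lhx1 partners, which are not members, were read on the same arrays. Ldb1 spanned 13.09 to 13.74 for wild type and 13.37 to 13.57 for null at day 5 (log2 fold change 0.01 ± 0.15). For Ssbp3 the values were -0.21 ± 0.16 and -0.13 ± 0.16, and for Ssbp4 -1.06 ± 0.43 and -0.25 ± 0.43, with adjusted p = 0.334 at day 5. Those of Ssbp2 were 0.05 ± 0.38 at both days. Ldb2 and Rbpj had probes on the array, and none was measured. Otx2 and Foxa2, transcription factors of the same anterior tissue, had log2 fold changes of -2.30 ± 0.84 and -2.47 ± 0.61 at day 5, which did not pass (adjusted p = 0.266 and 0.0901). At day 6 the values were -2.36 ± 0.84 and -2.04 ± 0.61 (adjusted p = 0.191 and 0.116). Yet for both genes every null culture lay below every wild-type culture at each day, as for 1.6% of all genes. The paper reports both genes as markedly reduced in null cultures. Their lowest values too were those of null day 5 replicate 4 and null day 6 replicate 2, at 8.81 and 8.53 for Otx2 and 5.88 and 6.45 for Foxa2.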

How the data were processed

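The authors deposited probe intensities without normalization, with a detection p-value beside each one, from GenomeStudio (submitters' processing notes, version not stated). The authors also deposited rank-invariant normalized intensities, used as an alternative. In R 4.3.3 with limma 3.58.1, neqc gave background-corrected, quantile-normalized log2 intensities (offset 16). Of 45281 probes, 15593 reached a detection p below 0.01 on 4 arrays or more and were kept, the brightest standing for each symbol of the platform annotation. Of all probes, 34885 carry 1 symbol, 18 several and 10378 none, and unnamed probes were kept under their own ID. One model of the 4 group means gave all comparisons, with Benjamini-Hochberg adjustment, and was tested on simulated data. For a gene below background on all arrays of 1 group, the bound on its fold change compares the bright group with the lowest signal above background on each dim array. The number of arrays limits the precision.

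Members, lists and rules were chosen with earlier results of these data known. Named were all called members, the 6 highest and 6 lowest others by mean log2 fold change, the 2 brightest of each role, those within 500 bp of a peak centre, Emb and Eomes, the 2 genes on each side of the limit, and Lhx1 partners. Sox13, Med16, Tspan18, Slit3, Tead1 and the unmeasured genes were named after their values were seen, as were the 3 genes set aside. Of the 241 members, 7 without a probe under their symbol matched another symbol by Ensembl ID or synonym, which was used only as an alternative. Several probes were kept for 29 members, and all probes had the same sign in 22 of them at each day.

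Deviations of same-numbered wild-type and null cultures from their group means correlated at 0.14 to 0.36 at day 5, all 4 pairs above 0.1, and at -0.044 to 0.44 at day 6. By that criterion, which comes from the data and not from the labels, numbers passed as pairs at day 5 only. Even there 2 of 4 correlated best with their own number, and at day 6 it was 1 of 4. The main model used no pairs, and the replicate block within day was fitted at both days. The replicate block over both days also joins equal numbers across days, which may be unrelated cultures. Null day 6 replicates 3 and 4 have titles and descriptions that disagree on the number, and titles were used. Promoter windows are from RefSeq (GRCm38.p6). The alternatives were no background correction, another offset, the rank-invariant table, other filters, the mean of a symbol's probes, fits by day, array weights, replicate blocks, a covariate, single and paired cultures left out, other distance limits and matching by Ensembl ID.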

Additional observations from a re-analysis of the deposited data

Results flagged for a closer look

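Among 27 named members in 4 groups each, 108 groups of 4 cultures were searched for a culture whose gap to its nearest neighbour took up more of the group's range than Dixon's critical value allows. Chance alone marks about 1 in 20 groups, and the 5 marked here are about that share of the 108. Eomes read 5.51 in null day 5 replicate 4, beside 10.29 to 11.08 in the other 3 cultures, and 6.27 in null day 6 replicate 2, beside 11.10 to 11.22. Vrtn read 8.99 and Dnmt3b 13.46 in null day 6 replicate 2, where the others lay at 11.97 to 12.17 and at 14.44 to 14.54. Meg3 read 6.69 in null day 5 replicate 1, beside 8.10 to 8.14. Of the 5 marked values, 4 came from the 2 null cultures with the lowest Lhx1 signal and the lowest endoderm marker means. Values of 1 culture are not independent of each other, and the part of either trait in them was not tested. No member passed the test of a difference between days.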

How the results depend on the processing

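The directions of Mbp and Kif26a held under all alternatives run, and their calls did not. At day 5, 1 member was called, and the count was 2 with an offset of 50 or with detection required on at least 8 arrays (Kif26a added), and 0 with samples of 1 day only, the replicate block over both days, or Eif2s3y (a Y-linked gene) as a covariate. At day 6, 2 were called, and the count was 0 without the filter on dim probes, with samples of 1 day only, with the replicate block, with the covariate, and without the 2 null samples of conflicting labels. It was 12 with array weights, 5 without the 2 null cultures lowest in Lhx1, and 1 among genes with a peak at most 5000 or 10000 bp away. The replicate block within day left the day 5 count at 1 and gave 1 at day 6, where Mbp missed the threshold (adjusted p = 0.0539). With the 3 set-aside genes, an alternative added after seeing the data, the counts were 4 and 5. Leaving out single cultures gave 0 to 3 calls at day 5 and 0 to 5 at day 6.

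The calls over all genes numbered 61 (day 5) and 172 (day 6), against 21 and 82 without the filter, 14 and 90 with the replicate block and 6 and 53 with the covariate. Samples of 1 day only gave 16 at day 5, array weights 1153 at day 6, and omission of the 2 samples of conflicting labels 5 at day 6. Single omissions gave 11 to 178 and 33 to 337. The members' median log2 fold change at day 6, 0.078, was -0.008 without the filter, 0.006 without the samples of conflicting labels, -0.007 without the cultures lowest in Lhx1, 0.009 with the covariate and 0.163 with peaks at most 10000 bp away. Single omissions gave -0.008 to 0.072 at day 5 and -0.007 to 0.125 at day 6. The second Lhx1 probe, also added later, gave -2.50 at day 5 (exact permutation p = 0.0286). No call of a named gene changed direction. A block for slides was not run, as no slide is given. Signal near background limits Kif26a, Ror1, Meg3, Mbp, Fzd8 and Sema6d, and the log2 fold changes of day 5 without background correction and in the rank-invariant table were -0.80 and -0.73 for Kif26a, -1.64 and -1.52 for Fzd8 and -1.40 and -1.31 for Sema6d. Of the set-aside genes, samples of 1 day only and the replicate block ended the day 5 call of Fzd8 (0.067 and 0.051), and the covariate ended those of all 3 at day 5 and of Sema6d at day 6 (adjusted p of 0.0511 to 0.0784). The causes of these changes were not tested, except that a single day or fewer cultures leaves fewer degrees of freedom.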
